A study of Homo sapiens with 8 samples.

Results

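Trimethylation of lysine 4 on histone H3 (H3K4me3), a mark of active promoters, was examined around the start sites of 7 inducible genes in MM1S, an established human multiple myeloma cell line. The genes were DUSP6, FOS, EGR1 and JUN, which respond to signalling through the kinase ERK, and CXCL2, TNFAIP3 and NFKBIA, which respond to the transcription factor NF-kB. DUSP6, CXCL2 and TNFAIP3 were picked because the regions called there were narrower after KDM5-C70 in these same libraries, so their difference between the groups is described here and not tested. NFKBIA, JUN, FOS and EGR1 served as comparators. For each gene, all bases within 5 kb of its start site on GRCh37 were considered, and the 7 windows stand among 13736 windows, the other 13729 being centred on the merged regions called in all 8 libraries. All 7 windows held called bases in every library.

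There were 8 chromatin immunoprecipitation libraries. Vehicle-treated cells (DMSO, duration not labelled) gave 5 of them, and cells treated with KDM5-C70 at 50 uM for 7 days gave 3. KDM5-C70 inhibits the KDM5 demethylases, which remove methyl groups from this lysine. Beyond treatment the labels name no allele or other agent, and all samples are of this 1 cell line. They do not say whether the libraries came from separate cultures, so the spread between them may be technical. Each list gives called regions and, within them, inner segments, the narrower blocks that the authors' peak caller placed inside a region. The lists of DMSO 1, DMSO 2 and KDM5-C70 1 held 15323 to 20998 regions and those of the other 5 libraries held 28195 to 37948, so values are also given within these 2 sets, which were recognised from the data. Read depth is unknown, and a base outside a region is one that was not called. The median fold enrichment of regions, a value of the authors' peak caller, was 2.83 to 3.1 in DMSO lists and 2.39 to 2.67 in KDM5-C70 lists, and its part in the results was not tested. Called length does not measure the amount of the mark, so a shorter stretch need not mean less of it. In a list from many cells, the number of marked copies of a promoter and the mark on each copy cannot be told apart. Gene positions other than the 7 start sites were not used on this build, so plasma cell markers and further genes of the ERK and NF-kB responses were not analysed here.

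ERK is the last kinase of the RAS pathway. Once active, it switches on immediate early genes within minutes, among them FOS and EGR1. FOS and JUN proteins pair to form the transcription factor AP-1, EGR1 is a zinc finger transcription factor, and DUSP6 is a phosphatase that removes the activating phosphates from ERK and so closes a feedback loop. NF-kB is held in the cytoplasm by the inhibitor encoded by NFKBIA and is released when that inhibitor is degraded. It then induces NFKBIA itself, the ubiquitin-editing enzyme TNFAIP3, which damps the pathway, and chemokines such as CXCL2, which attracts neutrophils. Lesions that activate the RAS and NF-kB pathways are common in multiple myeloma.

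The promoters of the 3 picked genes and of 2 comparators are shown: the 3 because the results turn on them, NFKBIA because it shares the NF-kB motif of CXCL2 and TNFAIP3, and EGR1 as an ERK response gene whose called bases overlapped between the groups. The sequences run 5′ to 3′ from 250 bases before the start to the first 50 bases of the transcript, as RefSeq gives them on GRCh38.p14. Capitals mark matches to the kappaB motif, bound by NF-kB, and to the CArG box, bound by serum response factor, on either strand.
CXCL2: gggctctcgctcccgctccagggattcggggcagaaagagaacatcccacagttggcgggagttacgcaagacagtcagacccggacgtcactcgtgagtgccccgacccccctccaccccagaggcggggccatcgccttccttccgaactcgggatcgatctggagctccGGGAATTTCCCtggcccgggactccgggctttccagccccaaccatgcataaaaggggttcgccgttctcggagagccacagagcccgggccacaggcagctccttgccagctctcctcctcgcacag
TNFAIP3: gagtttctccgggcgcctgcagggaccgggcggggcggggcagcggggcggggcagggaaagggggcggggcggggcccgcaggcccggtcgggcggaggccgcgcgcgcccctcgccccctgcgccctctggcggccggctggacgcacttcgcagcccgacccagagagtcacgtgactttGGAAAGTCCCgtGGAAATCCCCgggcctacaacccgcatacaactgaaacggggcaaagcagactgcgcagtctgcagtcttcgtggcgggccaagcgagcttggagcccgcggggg
NFKBIA: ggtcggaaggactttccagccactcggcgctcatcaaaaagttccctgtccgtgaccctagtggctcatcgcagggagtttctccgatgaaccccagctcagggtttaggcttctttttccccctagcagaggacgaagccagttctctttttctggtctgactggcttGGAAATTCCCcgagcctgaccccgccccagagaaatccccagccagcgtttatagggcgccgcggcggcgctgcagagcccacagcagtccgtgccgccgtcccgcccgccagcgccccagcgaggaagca
EGR1: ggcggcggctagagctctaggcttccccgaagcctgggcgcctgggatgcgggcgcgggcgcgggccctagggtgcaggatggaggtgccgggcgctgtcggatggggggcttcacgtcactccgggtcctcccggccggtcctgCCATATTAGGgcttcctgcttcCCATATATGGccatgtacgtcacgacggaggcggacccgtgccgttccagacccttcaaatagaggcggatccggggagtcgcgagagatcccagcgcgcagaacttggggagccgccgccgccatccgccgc
DUSP6: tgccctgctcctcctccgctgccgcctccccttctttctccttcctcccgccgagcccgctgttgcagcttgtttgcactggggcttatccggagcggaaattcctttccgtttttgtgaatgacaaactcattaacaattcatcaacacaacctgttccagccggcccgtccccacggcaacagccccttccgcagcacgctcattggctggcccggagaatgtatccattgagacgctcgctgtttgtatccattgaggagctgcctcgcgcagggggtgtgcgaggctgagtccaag
They lie at chr4:74099146-74099445 on the minus strand for CXCL2, chr6:137867009-137867308 on the plus strand for TNFAIP3, chr14:35404700-35404999 on the minus strand for NFKBIA, chr5:138465229-138465528 on the plus strand for EGR1 and chr12:89352452-89352751 on the minus strand for DUSP6. These are positions on GRCh38.p14. The RefSeq start may differ from the GRCh37 start site used for the windows, so motif positions were not carried over to the called regions.

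All 3 NF-kB response genes held the kappaB motif, which was present in 11.3% of the 35116 RefSeq promoters of this length. In CXCL2 there was 1 run of overlapping matches, from -78 to -68 relative to the RefSeq start. In TNFAIP3 the matches lay from -67 to -58 and from -55 to -46, and in NFKBIA from -81 to -72. EGR1 held CArG boxes from -105 to -96 and from -83 to -74, a motif found in 1.29% of promoters. None of the 7 promoters held the AP-1 motif TGANTCA (7.71% of promoters) or the ETS motif CCGGAA (17.2%). A match is a stretch of letters and does not show that a factor was bound.

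**Figure D1:**
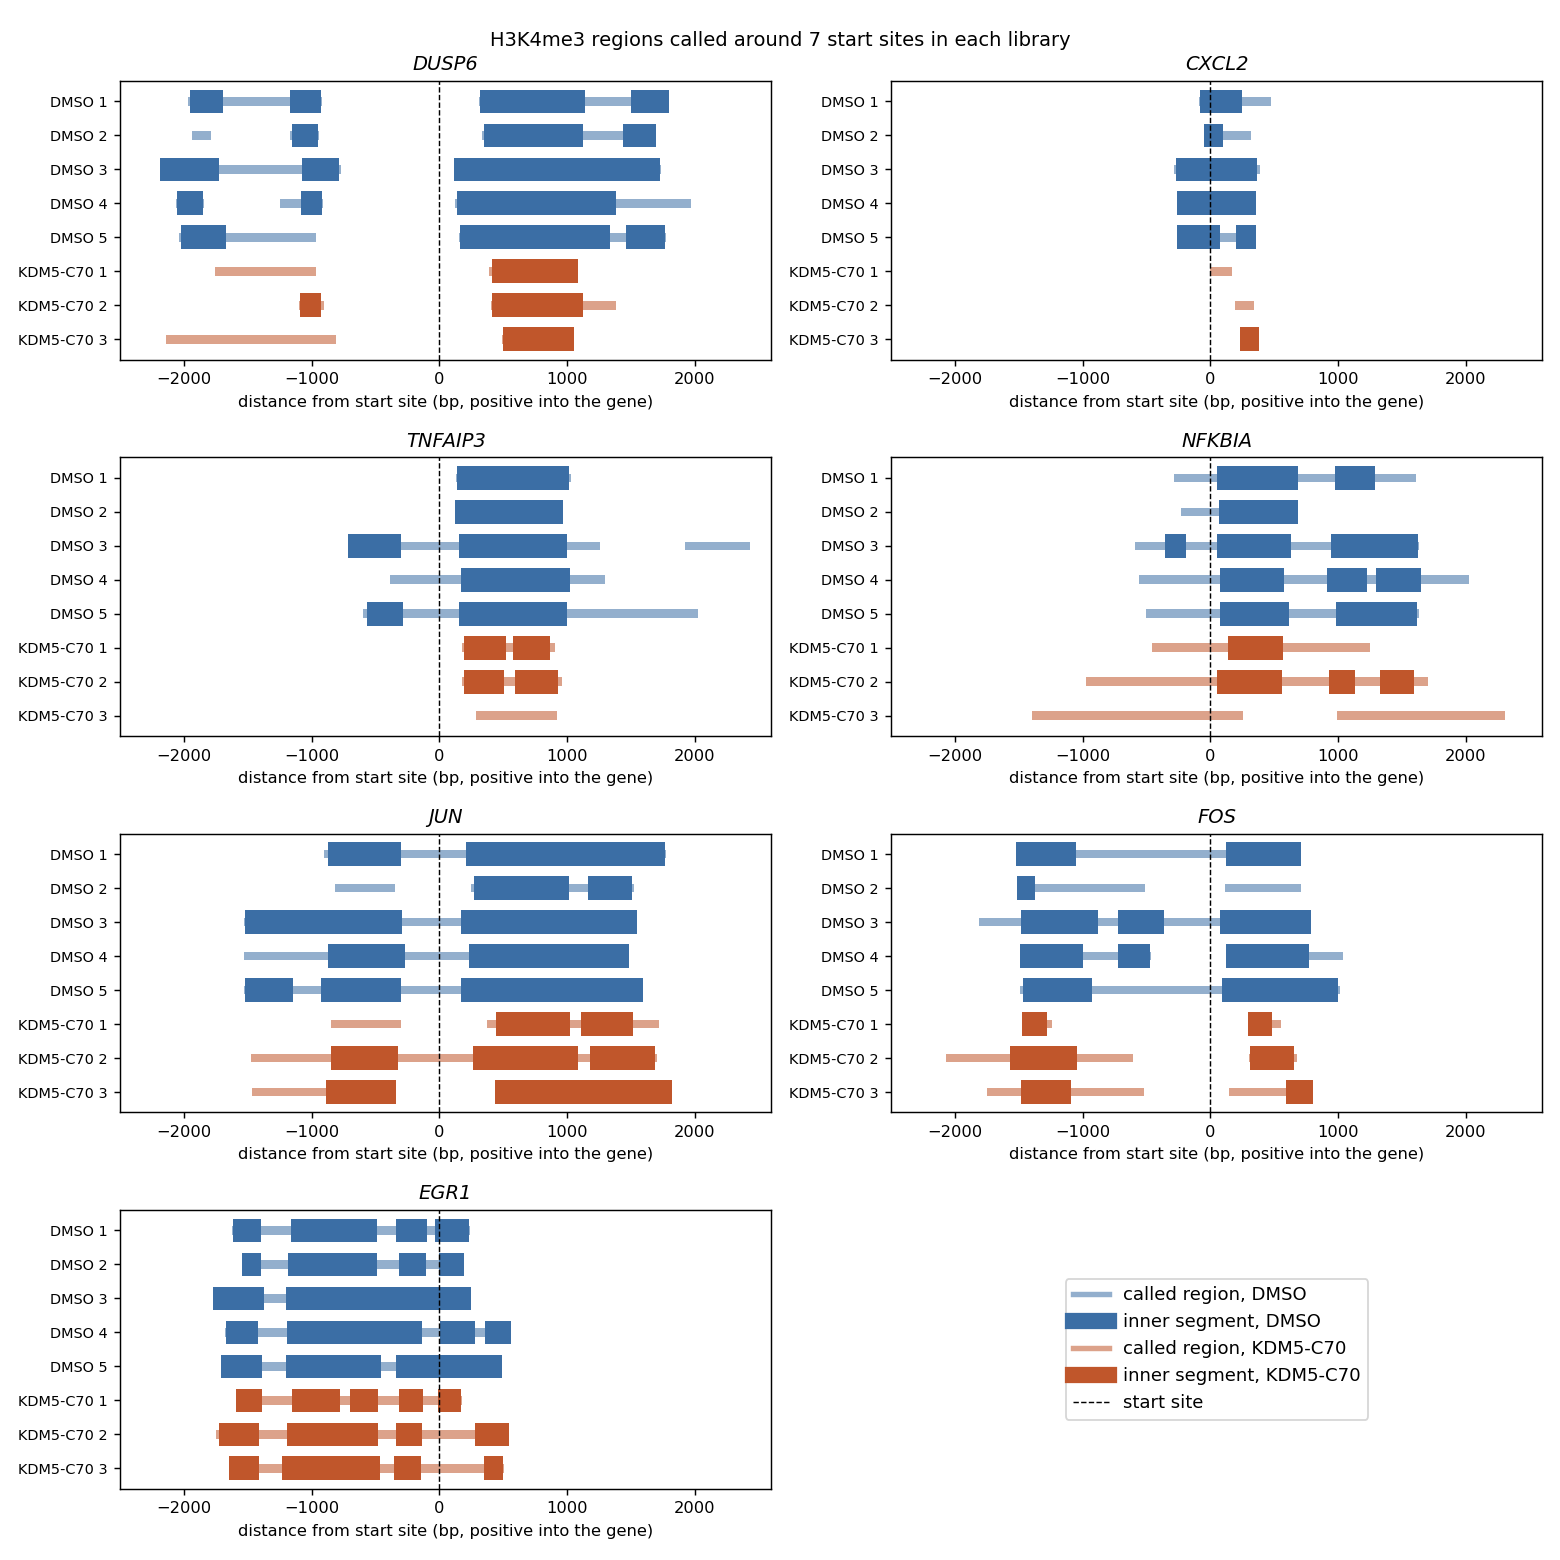
Called regions (thin bars) and inner segments (thick bars) around the 7 start sites, with 1 row per library (DMSO in blue, KDM5-C70 in orange) and the distance from the start site in bp on the horizontal axis, positive into the gene. At CXCL2 the start site lies inside the region of all 5 DMSO libraries and of KDM5-C70 1, where the region starts at -1, and upstream of the regions of KDM5-C70 2 and 3.

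At DUSP6, whose start site lies at position 89746296 of chromosome 12 on the minus strand, the mark was called upstream and inside the gene in every library, and the stretch inside the gene was shorter with KDM5-C70. Positions are counted along the gene with the start site at 0. The stretch inside the gene measured 1485, 1359, 1621, 1850 and 1616 bp in DMSO 1 to 5. It measured 699, 976 and 564 bp in KDM5-C70 1 to 3. The longest KDM5-C70 value thus lay below the shortest DMSO value, with means of 746 ± 210.0 bp (SD, n = 3) and 1586 ± 183 bp (SD, n = 5). No share over all windows was computed for bases inside the gene, and DUSP6 was picked for narrowing. Both ends of the stretch lay further in. In DMSO it began at 112 to 338 and ended at 1696 to 1974, and with KDM5-C70 it began at 389 to 494 and ended at 1057 to 1380. The 316 bp from 1381 to 1696 were called in all 5 DMSO libraries and in no KDM5-C70 library.

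Upstream of DUSP6 the called bases overlapped between the groups. They measured 374 to 1415 bp in DMSO, with a median of 1044 bp, and 788, 195 and 1333 bp in KDM5-C70 1 to 3. The inner bases there did not overlap. They measured 501, 200, 750, 372 and 358 bp in DMSO 1 to 5 and 0, 169 and 0 bp in KDM5-C70 1 to 3. No share over all windows was computed for upstream bases, and DUSP6 was picked for narrowing. The inner share of called sequence as a whole was 56.5 to 58.4% in KDM5-C70 lists and 68.2 to 76.3% in DMSO lists. Between the upstream and the internal stretch, no library called the start site or any base in the 300 bp promoter window (250 bp before the start site and the first 50 bp of the gene). Over the whole window, called bases were 2476 ± 479 bp (SD, n = 5) in DMSO and 1518 ± 364 bp (SD, n = 3) with KDM5-C70, and here KDM5-C70 3 with 1897 bp exceeded DMSO 2 with 1733 bp. Inner bases were 1734 ± 415 bp (SD, n = 5) and 704 ± 162 bp (SD, n = 3). They did not overlap, with KDM5-C70 lower, as in 2.13% of the 13736 windows. The log2 change was -0.71 (SE 0.23) in called and -1.09 (SE 0.23) in inner bases. The latter was -1.74 with lists cut to their widest 15323 regions. That cut is made on width itself, so it is no independent check. Mean called bases were 2131 bp in DMSO 1 and 2 against 1487 bp in KDM5-C70 1, and 2707 bp in DMSO 3 to 5 against 1534 bp in KDM5-C70 2 and 3.

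CXCL2, with its start site at position 74964997 of chromosome 4 on the minus strand, had the shortest called stretch of the 7 genes in every library. It measured 569, 369, 670, 621 and 622 bp in DMSO 1 to 5, and 170, 153 and 146 bp in KDM5-C70 1 to 3. The groups did not overlap, with KDM5-C70 lower, as in 0.473% of the 13736 windows, and CXCL2 was picked for narrowing. No list held a region under 146 bp, so the KDM5-C70 values lie at or near the floor of the region caller and their small spread of 12.3 bp (SD, n = 3) is bounded by it. The means were 570.2 ± 118 bp (SD, n = 5) in DMSO and 156 ± 12.3 bp (SD, n = 3) with KDM5-C70, and the log2 change was -1.84 (SE 0.32). It was -1.10 when windows with calls in 2 or more DMSO and 2 or more KDM5-C70 libraries were included, a fit that adds 200 bp to each value. Within the sets, the means were 469 bp in DMSO 1 and 2 against 170 bp in KDM5-C70 1, and 638 against 149.5 bp in the other libraries.

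The position of the CXCL2 stretch differed as well as its length. In every DMSO library the region spanned the start site, and the bases from -48 to 320 were called in all 5. With KDM5-C70, replicate 1 was called from -1 to 168, replicate 2 from 189 to 341 and replicate 3 from 234 to 379. No base was called in all 3 of these libraries. In the 300 bp promoter window, DMSO libraries had 143, 98, 300, 300 and 300 called bases, and KDM5-C70 libraries had 51, 0 and 0. Inner bases measured 326, 146, 633, 621 and 504 bp in DMSO 1 to 5 and 0, 0 and 146 bp in KDM5-C70 1 to 3, so KDM5-C70 3 equalled DMSO 2. The log2 change in inner bases was -1.36 (SE 0.41) with 200 bp added to each value and -2.52 with 50 bp added.

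TNFAIP3, with its start site at position 138188325 of chromosome 6 on the plus strand, had a called stretch just inside the gene in every library, and in 3 DMSO libraries it also extended upstream. Called bases measured 898, 843, 2489, 1681 and 2624 bp in DMSO 1 to 5 and 730, 784 and 628 bp in KDM5-C70 1 to 3. No KDM5-C70 value reached the lowest DMSO value, as in 0.473% of the 13736 windows, and TNFAIP3 was picked for narrowing. DMSO 2 and KDM5-C70 2 differed by little compared with the spread among DMSO libraries, 1707 ± 845 bp (SD, n = 5). The means of DMSO 1 and 2 and of KDM5-C70 1 were 870.5 and 730 bp, while those of DMSO 3, 4 and 5 and of KDM5-C70 2 and 3 were 2265 and 706 bp. The log2 change was -1.10 (SE 0.41).

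Within the larger set, the TNFAIP3 region of DMSO libraries reached further on both sides, ending at 1259, 1296 and 2024 in DMSO 3, 4 and 5 against 962 and 918 in KDM5-C70 2 and 3. DMSO 3 had a further region from 1925 to 2435. DMSO 3, 4 and 5 had 718, 384 and 599 called bases upstream of the start site, and DMSO 1, DMSO 2 and all KDM5-C70 libraries had 0. The core from 291 to 909 was called in all 8 libraries. Inner bases inside the gene were nearly constant in DMSO, at 842 to 883 bp (855 ± 16.7 bp, SD, n = 5). KDM5-C70 1 and 2 had 615 and 652 bp there, each in 2 segments with a gap that covered 524 to 580 in both, and KDM5-C70 3 had none. The change in inner bases over the window was -1.19 (SE 0.43) on the log2 scale, -1.85 with 50 bp added in place of 200 bp, and -0.50 without KDM5-C70 3.

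Among the comparators, NFKBIA, with its start site at position 35873960 of chromosome 14 on the minus strand, had called bases of 1895, 916, 2230, 2590 and 2141 bp in DMSO 1 to 5 and 1703, 2680 and 2962 bp in KDM5-C70 1 to 3. The groups overlapped. Means within the sets were 1406 bp (DMSO 1 and 2) against 1703 bp (KDM5-C70 1), and 2320.3 against 2821 bp in the other libraries. The log2 change was 0.37 (95% interval -0.37 to 1.11, limma adjusted p = 0.999), and 0.11 without DMSO 2 and 0.61 without KDM5-C70 1. Regions covered the start site in all 8 libraries. KDM5-C70 2 and 3 reached -973 and -1397, beyond the furthest DMSO end at -595. In KDM5-C70 3 the call was split, from -1397 to 251 and from 993 to 2305. Of the 916 bp called in all DMSO libraries, 53.1% were called in all 8 libraries, against 87.6% over all regions.

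NFKBIA inner bases, in contrast, measured 955, 617, 1428, 1168 and 1171 bp in DMSO 1 to 5 and 434, 981 and 0 bp in KDM5-C70 1 to 3. KDM5-C70 2 lay inside the DMSO range and the other 2 below it. The log2 change was -1.22 (95% interval -2.25 to -0.18, limma adjusted p = 1 over all windows), and -0.51 without KDM5-C70 3. The inner share of called bases was 45.1 to 67.4% in DMSO and 25.5, 36.6 and 0% in KDM5-C70 1 to 3. That share lay below all DMSO libraries with no overlap, as it did in 12.4% of the 13736 windows.

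FOS, with its start site at position 75745481 of chromosome 14 on the plus strand, was called on both sides of the start site in every library. Called bases measured 2230, 1598, 2601, 1945 and 2507 bp in DMSO 1 to 5 and 500, 1843 and 1892 bp in KDM5-C70 1 to 3. KDM5-C70 1 was the lowest by far, and the other 2 lay within the DMSO range. The log2 change was -0.83 (95% interval -1.74 to 0.07, limma adjusted p = 0.999), and without KDM5-C70 1 it was -0.20. Within the sets, the means were 1914 against 500 bp and 2351 against 1868 bp. The start site was called in DMSO 1, 3 and 5 and in no KDM5-C70 library. In DMSO 2 and 4, as in all 3 KDM5-C70 libraries, separate upstream and internal regions were called. Of the 1569 bp called in all DMSO libraries, 31.1% were called in all 8 libraries, against 87.6% over all regions. A further 50.1% were called in 2 KDM5-C70 libraries, against 9.74%, and 2.04% in no KDM5-C70 library, against 0.487%. Inner bases were 146 to 1684 bp in DMSO and 385 to 876 bp with KDM5-C70, with a log2 change of -0.54 (95% interval -1.61 to 0.52, limma adjusted p = 1). Without DMSO 2, which had 146 bp, that change was -0.98.

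EGR1, with its start site at position 137801181 of chromosome 5 on the plus strand, was called mainly upstream, from between -1771 and -1547 to between 174 and 558 in the 8 libraries. Called bases measured 1857, 1738, 2019, 2236 and 2206 bp in DMSO 1 to 5 and 1769, 2299 and 2153 bp in KDM5-C70 1 to 3. The groups overlapped, with a log2 change of 0.04 (95% interval -0.33 to 0.42, limma adjusted p = 0.999), or -0.12 when each library was centred. Within the sets, the means were 1798 against 1769 bp and 2154 against 2226 bp. Of the 1738 bp called in all DMSO libraries, 99.1% were called in all 8 libraries, against 87.6% over all regions. Inner bases measured 1400, 1254, 1849, 1784 and 1900 bp in DMSO and 1163, 1487 and 1367 bp with KDM5-C70, a log2 change of -0.25 (95% interval -0.67 to 0.17, limma adjusted p = 1). The inner share was 72.2 to 91.6% in DMSO and 65.7, 64.7 and 63.5% in KDM5-C70 1 to 3. As at NFKBIA, this share lay below all DMSO libraries with no overlap, which held in 12.4% of the 13736 windows.

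JUN, with its start site at position 59249785 of chromosome 1 on the minus strand, had the widest called stretch of the 7 genes on average in both groups. Called bases measured 2675, 1741, 3081, 3021 and 3122 bp in DMSO 1 to 5 and 1899, 3178 and 2516 bp in KDM5-C70 1 to 3. The groups overlapped, with a log2 change of -0.11 (95% interval -0.64 to 0.43, limma adjusted p = 0.999), or 0.08 without KDM5-C70 1. Within the sets, the means were 2208 against 1899 bp and 3075 against 2847 bp. Inner bases were 1087 to 2609 bp in DMSO, with a median of 2135 bp, and 992, 1855 and 1933 bp in KDM5-C70 1 to 3 (log2 change -0.31, 95% interval -0.91 to 0.29, limma adjusted p = 1). The stretches from -814 to -347 and from 435 to 1489 were called in all 8 libraries. The start site between them was not called in DMSO 2, KDM5-C70 1 and KDM5-C70 3.

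**Figure D2:**
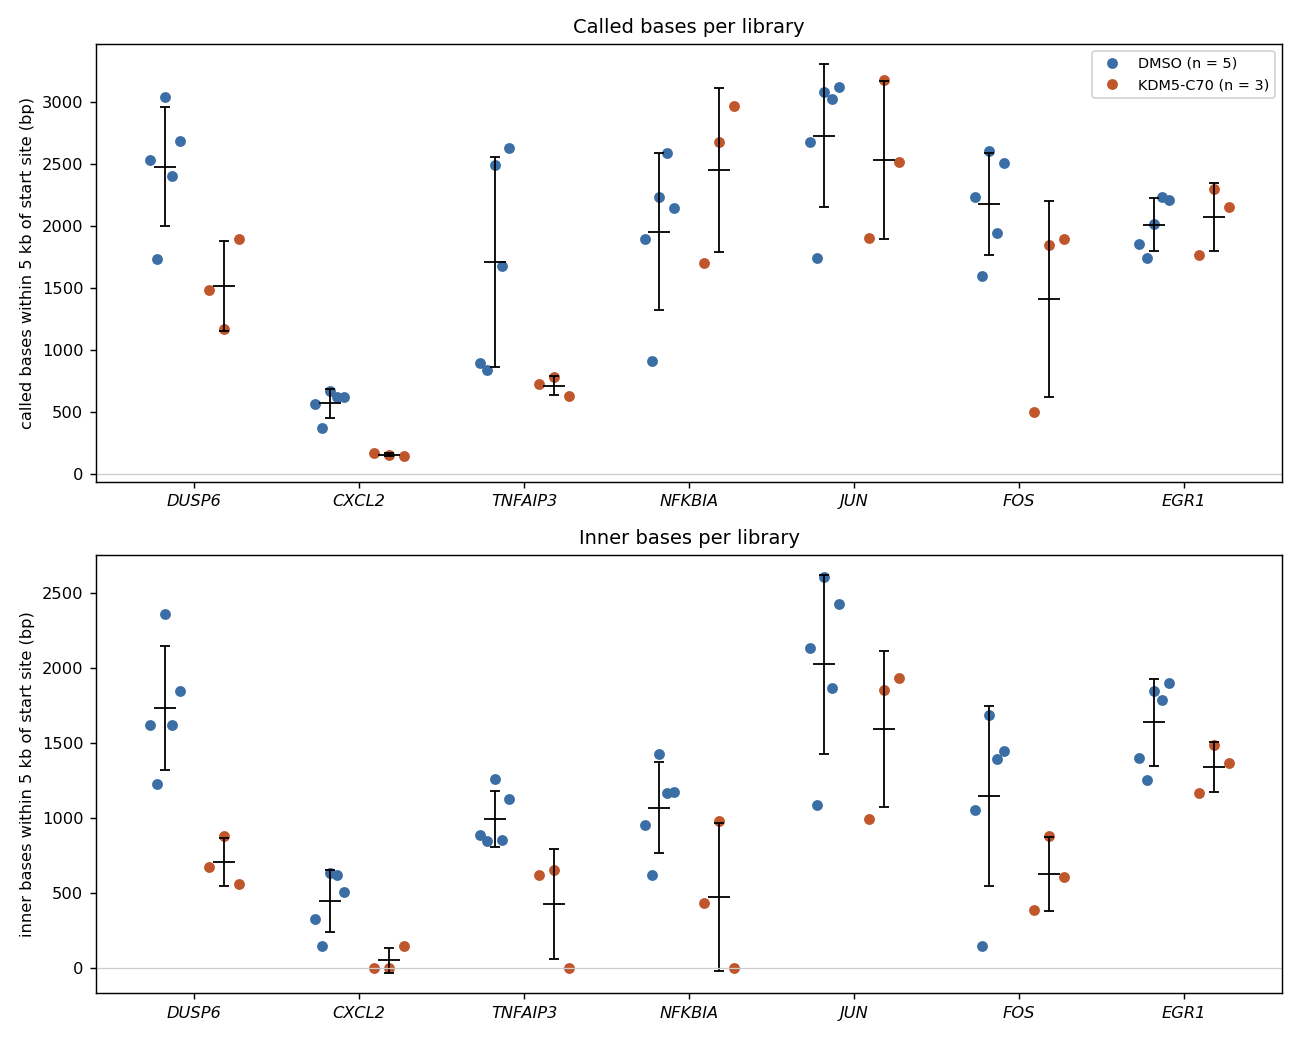
Called bases (top) and inner bases (bottom) within 5 kb of each start site, in bp, with 1 point per library; black marks show the mean and SD of 5 DMSO (blue) and 3 KDM5-C70 (orange) libraries. For called bases KDM5-C70 lies below DMSO without overlap at CXCL2 and TNFAIP3, as in 0.473% of all windows. For inner bases this holds at DUSP6 and TNFAIP3, as in 2.13% of all windows. DUSP6, CXCL2 and TNFAIP3 were picked for narrowing.

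Ordered by mean called bases in DMSO, JUN (2728 bp) stood first, then DUSP6 (2476 bp), FOS (2176 bp), EGR1 (2011 bp), NFKBIA (1954 bp), TNFAIP3 (1707 bp) and CXCL2 (570.2 bp). Neighbours in this order overlapped in range, except that every CXCL2 value lay below every TNFAIP3 value. With KDM5-C70 the order was JUN (2531 bp), NFKBIA (2448 bp), EGR1 (2074 bp), DUSP6 (1518 bp), FOS (1412 bp), TNFAIP3 (714 bp) and CXCL2 (156 bp). Here too neighbours overlapped, except that every CXCL2 value lay below every TNFAIP3 value.

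Ranks among the 13736 windows of each library are given by set, since they too differed between the short and the long lists. In the short lists, DUSP6 had more called bases than 98.4 and 94.2% of windows in DMSO 1 and 2 and than 81.7% in KDM5-C70 1. In the long lists it stood above 93.2 to 97.2% in DMSO 3 to 5 and above 24 and 64.5% in KDM5-C70 2 and 3. CXCL2 stood above 10.4 and 9.56% of windows in the short DMSO lists and 0.655% in KDM5-C70 1, and above 3.01 to 4.32% in the long DMSO lists and 0.0582 and 0% in KDM5-C70 2 and 3. For TNFAIP3 the ranks were 34.7 and 47.5% against 27.9% in the short lists, and 68.1 to 95.2% against 7.35 and 3.23% in the long ones. All 3 picked genes thus ranked lower with KDM5-C70 in both sets, a description of the contrast they were picked on. Among the comparators, FOS stood at 96.5 and 91.3% against 11.7% in the short lists and at 81 to 94.1% against 64 and 64.2% in the long ones. NFKBIA stood at 53.3 to 95.7% in DMSO and 90 to 96.7% with KDM5-C70, JUN at 94.3 to 98.8% and 88.8 to 98.3%, and EGR1 at 77.2 to 94.2% and 76.8 to 91.9%. The ranks of these 3 genes overlapped between the groups.

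Across all 13736 windows, limma called 0 windows different in called bases (0% of windows) and 0 in inner bases (0%) at an adjusted p under 0.05, with smallest adjusted p of 0.545 and 0.393. At an unadjusted p under 0.05 there were 112 lower (0.815%) and 120 higher (0.874%) windows in called bases, and 526 lower (3.83%) and 0 higher (0%) in inner bases. When limma was given the set as a term and centred libraries, it called 21 lower (0.153%) and 4 higher (0.0291%) windows in called bases, and 293 lower (2.13%) and 34 higher (0.248%) in inner bases, with none of the 4 comparators among them. The median log2 change was 0.14 in called and -0.06 in inner bases, while over the 7 genes it was -0.71 and -1.09, values that the choice of 3 of them sets in part. Called bases of KDM5-C70 lay below those of DMSO in every library at 2 of the 7 genes, CXCL2 and TNFAIP3, and in 0.473% of all windows. For inner bases this held at DUSP6 and TNFAIP3, and in 2.13% of all windows. For the inner share it held at NFKBIA and EGR1, and in 12.4% of all windows. None of the 7 genes lay above DMSO in every library, against 0.895% of windows for called bases, 0.0218% for inner bases and 0.197% for the inner share. Since the 3 genes were picked on this contrast, nothing is read from these counts. The share of windows with a lower change in called bases was 0.0218% for CXCL2, 0.233% for TNFAIP3, 0.568% for FOS, 0.932% for DUSP6, 13.9% for JUN, 30.7% for EGR1 and 84.9% for NFKBIA.

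**Figure D3:**
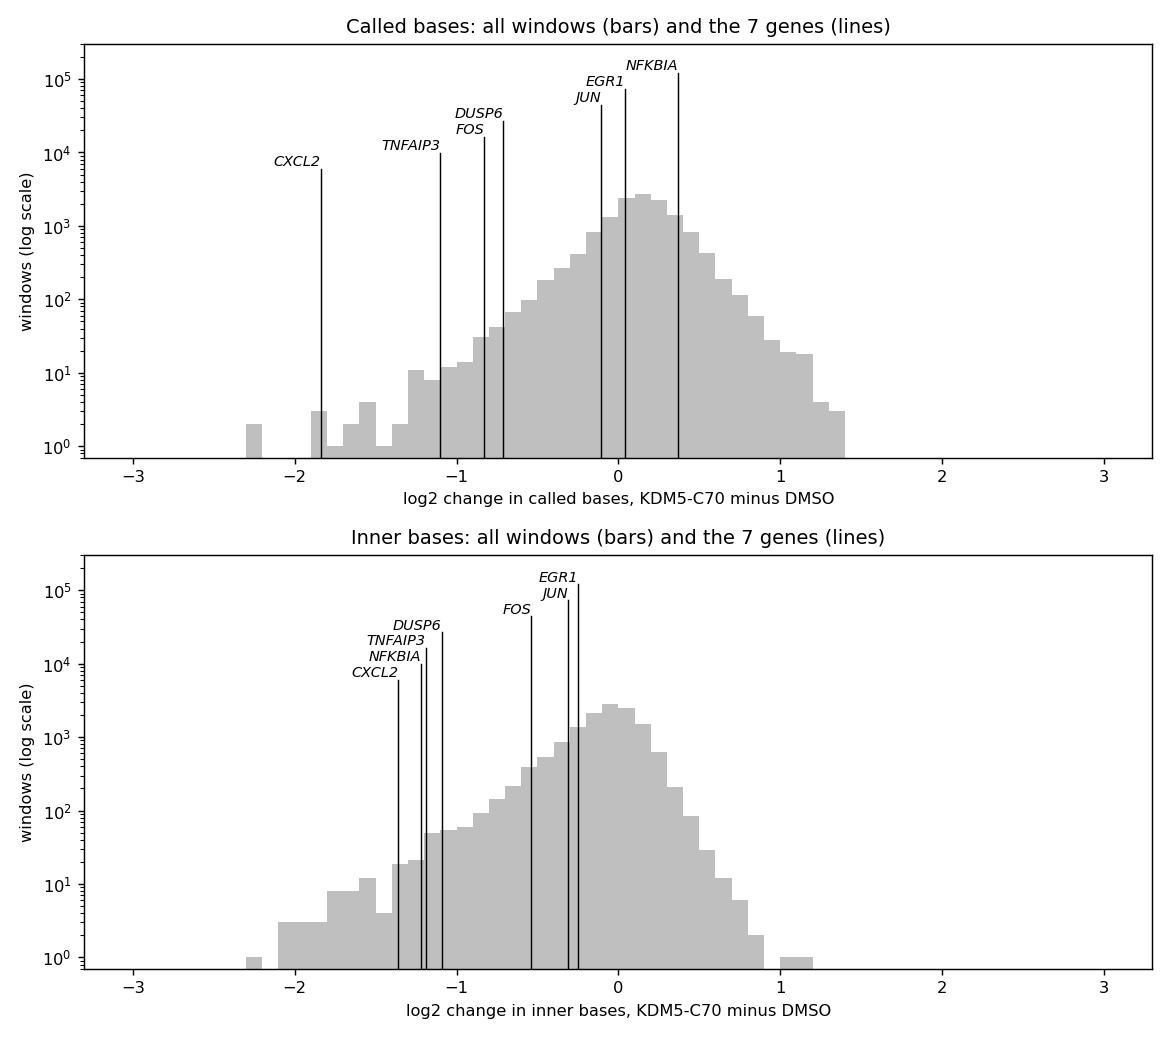
Log2 change from DMSO to KDM5-C70 in called bases (top) and inner bases (bottom, with 200 bp added to each value) for all 13736 windows (grey bars, number of windows on a log axis) and for the 7 genes (black lines, whose heights only separate the names). In called bases CXCL2 (-1.84), TNFAIP3 (-1.10), FOS (-0.83) and DUSP6 (-0.71) lie in the lower tail and NFKBIA (0.37) above the median of 0.14, and in inner bases NFKBIA (-1.22) lies beside the 3 picked genes.

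At DUSP6, CXCL2, TNFAIP3 and EGR1 no KDM5-C70 library called a base that no DMSO library had called. At NFKBIA there were 1081 such bases, from -1397 to -596 and from 2027 to 2305. At FOS there were 260, all upstream, and at JUN 45. The share of such bases over all regions was not computed. Since DUSP6, CXCL2 and TNFAIP3 were picked for narrowing, nothing is read from their lack of such bases. At none of the 7 genes was a base called in all 3 KDM5-C70 libraries and in no DMSO library. Over all regions such bases came to 0.0636 Mb. The reverse, bases called in all 5 DMSO libraries and in no KDM5-C70 library, came to 0.487% of 11.8 Mb. These counts ask for presence in and absence from unequal numbers of libraries.

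Of the bases called in all 5 DMSO libraries, 22.2% at DUSP6, 18.2% at CXCL2, 6.33% at TNFAIP3, 2.04% at FOS and 0% at NFKBIA, JUN and EGR1 were called in no KDM5-C70 library. Over chromosomes 1 to 22 and X this share was 0.487% of 11.8 Mb. For inner bases the share was 100% of 126 bp at CXCL2, 15.4% at TNFAIP3, 7.91% at DUSP6, 1.89% at EGR1, 0.607% at NFKBIA and 0% at FOS and JUN, against 1.85% of 7.88 Mb. DUSP6, CXCL2 and TNFAIP3 were picked for narrowing in these same libraries, so nothing is read from their shares. The inner share of called sequence as a whole was 68.2 to 76.3% in DMSO lists and 56.5 to 58.4% in KDM5-C70 lists, so inner bases were fewer per called base in KDM5-C70 libraries in general. Its part in the values of the 7 genes was not tested.

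**Figure D4:**
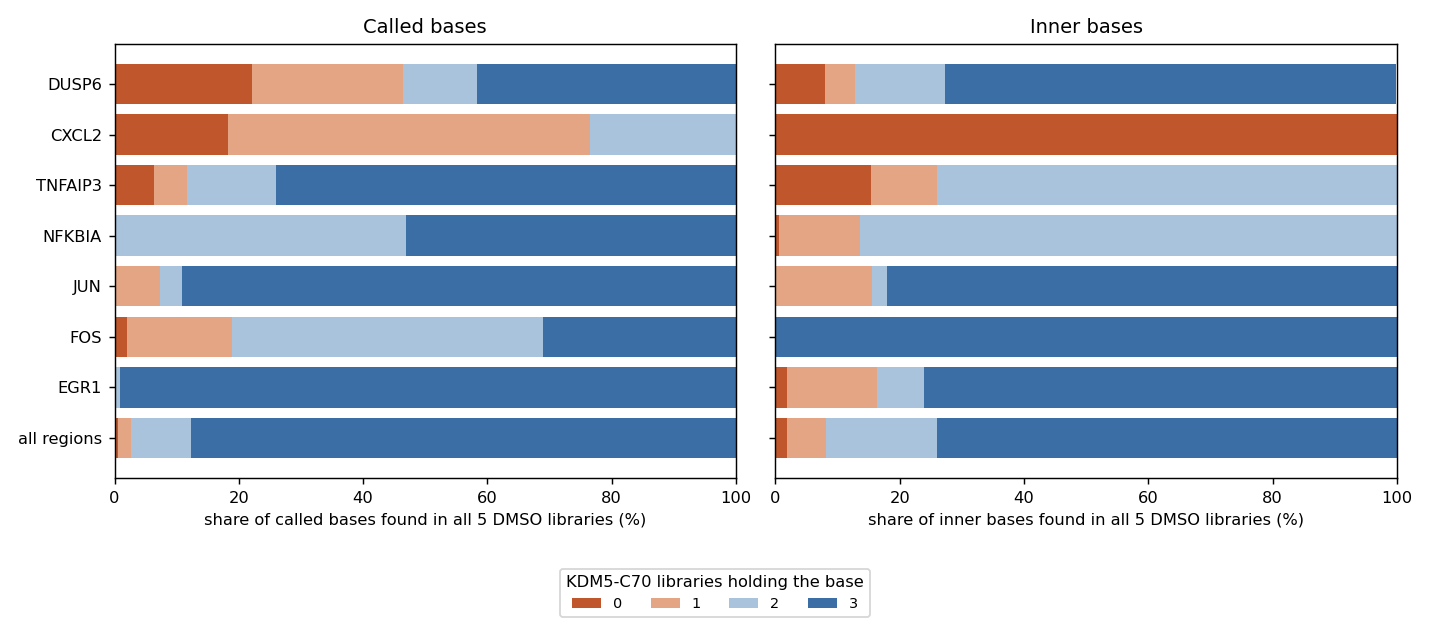
Bases found in all 5 DMSO libraries, as called bases (left) and inner bases (right), split by the number of KDM5-C70 libraries that also hold them, in percent, for each gene and for all regions. All 3 KDM5-C70 libraries hold 99.1% of these called bases at EGR1, 41.7% at DUSP6 and 0% at CXCL2, against 87.6% over all regions. DUSP6, CXCL2 and TNFAIP3 were picked for narrowing, so nothing is read from their shares.

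Other regions were searched for called widths that followed those of the picked genes over the 8 libraries. The regions with the highest Pearson correlation of log2 called width are named by position on GRCh37, as a description of 13721 regions that share the same 8 libraries. Taking the highest of so many correlations over 8 libraries yields high values by itself, so nothing is read from their size. For DUSP6 they lay on chromosome 14 from 45430082 to 45432443 (r = 0.975) and on chromosome 20 from 24450032 to 24452155 (r = 0.972). For CXCL2 they lay on chromosome 6 from 45389151 to 45392414 (r = 0.977) and on chromosome 2 from 43451304 to 43454922 (r = 0.976). For TNFAIP3 they lay on chromosome 6 from 89789228 to 89792396 (r = 0.979) and on chromosome 1 from 113497823 to 113500918 (r = 0.974). These regions differed in size of change. The second DUSP6 partner had a mean of 2025 bp in DMSO and 1916 bp with KDM5-C70, while the second CXCL2 partner had 3418 and 1912 bp.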

How the data were processed

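The 8 deposited lists hold 1 list of regions per library, so regions were not called on pooled samples. The submitters' processing notes name the build GRCh37 and the tools MACS2 2.1.0, HOMER 4.8, Bowtie 1.1.2 and Trim Galore 0.40. Settings and the use of a control were not given in the sources read. For each deposited region the authors' peak caller wrote positions and blocks. The authors' caller also wrote the -log10 of p and q, a score for display, and a ratio, the fold enrichment. In the deposited values only the q-value was used as a filter, the ratio was summarised per list, and the score was not used. Region names inside 3 DMSO lists (replicates 3 to 5) carry other numbers than the sample titles, and the titles were followed. Regions on sequences other than chromosomes 1 to 22 and X were left out (255 in all). In DMSO 3, 7 of these lay on sequences whose names begin with Dros, and no other list held such regions.

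Called bases are bases inside regions, and inner bases those inside blocks over 1 bp. Regions of the 8 lists that shared 1 bp or more were merged, giving 50523 merged regions. Windows of 5 kb on each side were centred on the 7 start sites and on the 13729 merged regions called in all 8 libraries. Log2 called bases, and log2 inner bases plus 200 bp, were fitted in R 4.3.3 using limma 3.58.1 (variance trend, group term, all 8 libraries, 2-sided, Benjamini-Hochberg over all windows at 0.05). Counting of bases and the limma step were tested on simulated data. Tables and plots were made with pandas 2.3.3, numpy 2.4.6 and matplotlib 3.10.9 in Python 3.11.15.

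All 7 genes were named. The members, lists and tests were chosen with earlier results of these data known. The partner regions were the 2 with the highest correlation for each picked gene. Alternatives were other windows (2 and 10 kb), stricter and equal-length lists, centring, the set of libraries or the replicate number as a term, no variance trend, other features and pseudocounts, and leaving out each library. Strand and promoter sequences came from RefSeq (GRCh38.p14), where all 7 genes matched by symbol. Gene lists of the 2 pathways and cell type markers were not placed, since no gene positions on GRCh37 were used.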

Additional observations from a re-analysis of the deposited data

How the results depend on the processing

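The counts of windows called by limma were 0 for called and for inner bases, and depended on the model. For called bases there were 10 with the replicate block, 25 with the set of libraries as a term and centred libraries, and 1 of 10 windows left with a -log10 q-value of at least 5. The last list dropped all 7 genes, which were then called in 0 or 1 KDM5-C70 libraries and in 2 to 5 DMSO libraries. For inner bases there were 32 with centred libraries, 275 with the set term, 327 with both, 1 with that q-value limit and 0 to 1 when single libraries were left out (1 without KDM5-C70 2). Every other alternative gave 0. Centring moved the median log2 change in called bases from 0.14 to -0.02. Deviations of same-numbered DMSO and KDM5-C70 libraries from their group means had correlations of 0.394, -0.324 and 0.339 for numbers 1 to 3. DMSO 2 with KDM5-C70 1 gave 0.43, and DMSO 3 with KDM5-C70 2 gave 0.338. Correlations were positive within the short and within the long lists and negative between them. This check therefore cannot say whether the numbers pair the samples.

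DUSP6, CXCL2, TNFAIP3, FOS and NFKBIA kept the sign of both changes in every alternative that kept them. Lists of equal length, which hold only the widest regions, dropped CXCL2, TNFAIP3 and FOS. DUSP6, CXCL2 and TNFAIP3 were picked for narrowing in these same libraries, so nothing is read from the sign they kept. Called bases changed by -0.89 to -0.54 at DUSP6, -2.0 to -1.10 at CXCL2 and -1.32 to -0.80 at TNFAIP3. No alternative took a comparator past the threshold, and the lowest limma adjusted p was 0.128 (EGR1, inner bases). The change in called bases turned at JUN to 0.03 with the replicate block and ranged from -0.29 to 0.08 when single libraries were left out. At EGR1 it turned to -0.12 with centring and -0.09 with the set term and centring, and ranged from -0.04 to 0.15 when single libraries were left out. The cause was not tested. Depth is unknown, and the shortest region is 146 bp, the called length at CXCL2 in KDM5-C70 3.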
